A study of Mus musculus with 6 samples.

Results

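The transcription factors that establish and hold the identity of hepatocytes, the main cells of the liver, were followed in livers of mice fed a ketogenic diet and in livers of mice fed chow. They were 9 genes: the nuclear receptors Hnf4a and Nr5a2, the winged-helix factors Foxa1, Foxa2 and Foxa3, the basic leucine zipper factors Cebpa and Cebpb, and the homeodomain factors Onecut1 and Prox1. Every probe set to which the platform annotation gives exactly 1 of these symbols was taken, which gave 19 of the 45101 probe sets of the table for 9 of its 18193 singly annotated genes. The filter on dim signals kept 18 of the 19. The ketogenic diet was F3666, a fat-based diet with hardly any carbohydrate, and the chow was Labdiet 5008. All mice were C57BL/6, began the diets at an age of 8 weeks and ate them for 6 weeks, and livers were taken in the morning from animals with free access to food. Liver RNA was hybridised to 3 arrays per diet. The design text speaks of 2 to 3 animals per group, and the labels leave unsaid whether an array held 1 animal or pooled animals. The p-values therefore measure the spread between arrays and nothing more, and that spread may be technical.

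These factors bind one another's genes and a shared set of liver genes. The FOXA proteins open closed chromatin, HNF4A and the C/EBP proteins then drive genes of metabolism and of secreted plasma proteins, and ONECUT1, also called HNF6, acts beside them in hepatocytes and bile duct cells. PROX1 mostly represses, among other ways by binding HNF4A and NR5A2, and NR5A2, also called LRH-1, controls genes of bile acid and cholesterol metabolism. The liver uses C/EBP-beta in fasting, in the acute phase response and in endoplasmic reticulum stress, whereas C/EBP-alpha marks the resting, differentiated hepatocyte.

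None of the 18 probe sets passed the threshold between the diets in limma's test (0 of 18, adjusted p under 0.05), against 4.64% of all 22515 probe sets tested, 4.08% higher and 0.564% lower in ketogenic livers. At an unadjusted p under 0.05 there were 2 of 18, both of Cebpb, against 20% of all probe sets. For 3 of the 18 the ketogenic and chow signals did not overlap, a share of 16.7% against 26.7% of all probe sets. Those were both probe sets of Cebpb, higher in ketogenic livers (21.6% of all probe sets), and the probe set of Foxa2, lower in ketogenic livers (5.06%). Of the 18 log2 changes 7 were positive (38.9%) and 11 negative, against 68.1% positive of all probe sets. Their median was -0.11, against 0.22 for all probe sets. Across all probe sets the smallest log2 change that passed was 0.97, and a p that missed the threshold does not show equal levels.

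**Figure D1:**
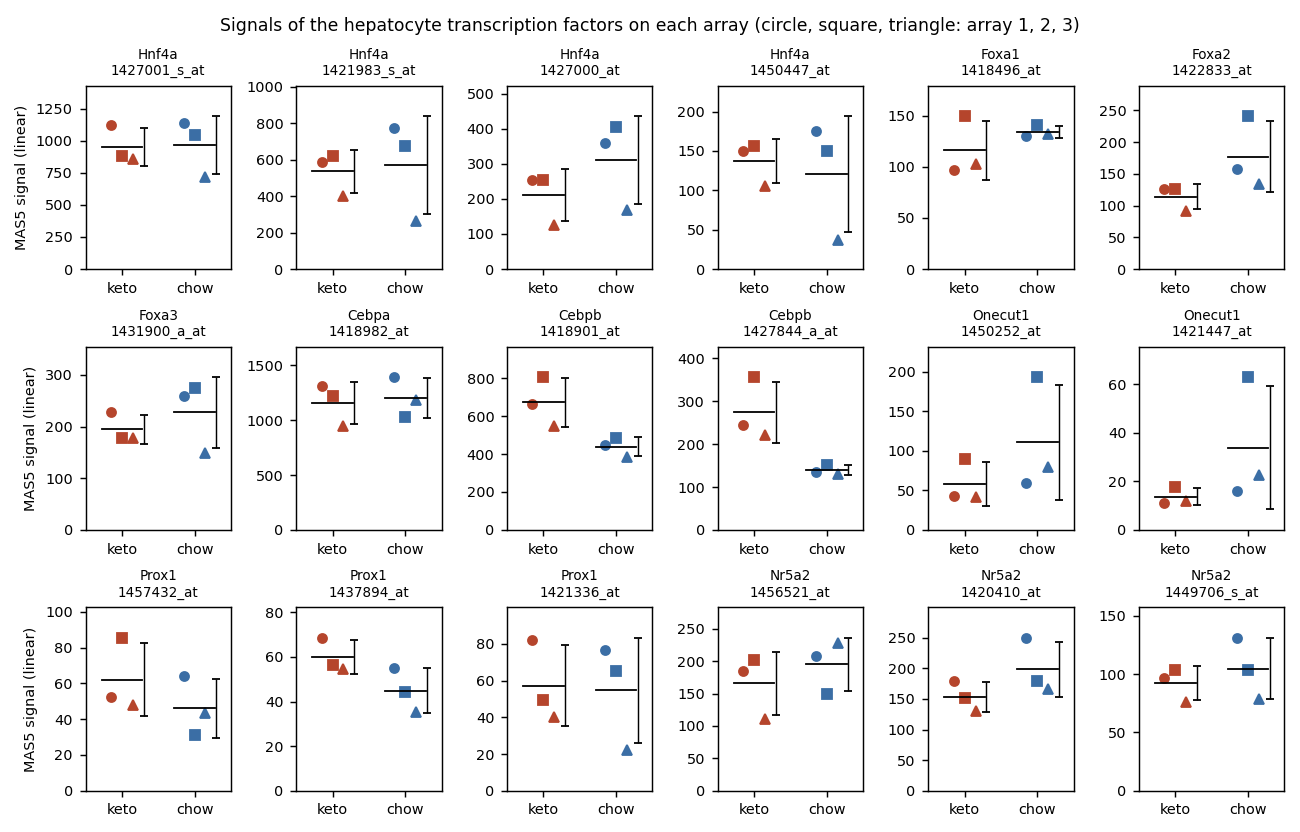
Linear MAS5 signal (y axis) of the 18 probe sets on the 3 ketogenic and the 3 chow arrays, with arrays 1, 2 and 3 of a diet as circle, square and triangle, the mean as a line and the SD as a bar. Both panels of Cebpb show 3 ketogenic arrays above all chow arrays, and in 3 of the 4 panels of Hnf4a the triangle of chow lies far under the other chow arrays.

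Cebpb was the member with the clearest separation. It encodes C/EBP-beta, which turns on gluconeogenic and acute phase genes. Its brighter probe set, 1418901_at, had signals of 666, 806.1 and 547.2 on the ketogenic arrays, against 446.3, 483.9 and 385.5 on the chow arrays. Every ketogenic array lay above every chow array. The log2 change was 0.61 ± 0.26 (SE, n = 3 arrays per diet), a 1.52-fold difference with a 95% interval from 1.01-fold to 2.29-fold, and limma's adjusted p was 0.238. On the other probe set, 1427844_a_at, the signals were 243.7, 356.4 and 222.3 on the ketogenic arrays, against 134.6, 152.4 and 130.1 on the chow arrays. The diets were again apart, with the ketogenic signals spread more widely, at 274.1 ± 72.0 in ketogenic and 139.03 ± 11.8 in chow livers (SD, n = 3 each). There the log2 change was 0.95 ± 0.27 (SE), a 1.93-fold difference with an interval from 1.26-fold to 2.96-fold, and limma's adjusted p was 0.0905. Of all probe sets 89.6% had a lower log2 change than this one, and 78.1% a lower one than 1418901_at. The change of 1427844_a_at passed the threshold with arrays scaled to the hybridization controls (adjusted p = 0.0129), with log2(signal + 16) in place of a floor (0.0124) and with a trended robust prior (0.0203), and that of 1418901_at only with the scaling to the hybridization controls (0.0262). Of all probe sets 22.8%, 10.1% and 8.31% passed under these alternatives, in that order, against 4.64% as deposited. Over all alternatives the adjusted p of 1427844_a_at ranged from 0.0124 to 0.241 and that of 1418901_at from 0.0262 to 0.493. Both probe sets read the transcript, and the long and short proteins made from it by alternative start codons cannot be told apart here.

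Cebpb is also transcribed in macrophages. The summed signal of 8 macrophage markers was 2345.3 to 3686.8 on ketogenic arrays, against 638 to 763.2 on chow arrays, and 6 of the 8 rose, with none at 0 on any array. Cd68, a lysosomal macrophage protein, rose by 2.71 ± 0.26 (log2, SE; limma's adjusted p = 0.00179), and Lyz2, the myeloid lysozyme, by 2.68 ± 0.25 with the same adjusted p. The part of these cells in the signal of Cebpb was not tested.

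Cebpa, which encodes C/EBP-alpha, did not separate the diets. Its 1 probe set had signals of 1312.1, 1216.9 and 943.8 on the ketogenic arrays, against 1392.2, 1025.5 and 1185.4 on the chow arrays. These ranges overlap over most of their width. The log2 change was -0.06 ± 0.26 (SE), with a 95% interval of the fold from 0.638 to 1.45 and limma's adjusted p of 0.924. Among the other C/EBP genes, Cebpd, whose protein pairs with C/EBP-beta in the acute phase response, rose by 1.10 ± 0.25 (log2, SE; limma's adjusted p = 0.044). The signals of this probe set were 65.4, 70.5 and 51.9 on ketogenic arrays and 26.1, 31.7 and 29.4 on chow arrays. That call was lost under 10 of 17 alternatives, among them without any 1 chow array (0.0857 to 0.0985) and without ketogenic array 1, 2 or 3 (0.165, 0.135 and 0.0708). The other probe set of Cebpd had a log2 change of 0.25 (0.634), at signals of 8.9 to 14.4, where a background of 10.8 is close. Cebpg, a partner of the C/EBP and ATF proteins, had signals that did not overlap between the diets, at a log2 change of 0.75 ± 0.28 (SE; limma's adjusted p = 0.189). Its other kept probe sets had log2 changes of 0.96 (limma's adjusted p = 0.0926), without overlap, and 0.72 (0.400), with overlap.

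The difference between the log2 signals of Cebpb and Cebpa on the same array does not move with a single scaling factor per array, and the balance of these factors is a known feature of the liver's response to fasting and injury. Read only as a difference between diets, it was -0.98, -0.59 and -0.79 on the ketogenic arrays, against -1.64, -1.08 and -1.62 on the chow arrays. Every ketogenic array was above every chow array, with ketogenic array 1 and chow array 2 the closest to each other. The mean was higher by 0.66 in ketogenic livers, a 1.58-fold shift of the balance toward Cebpb, with an exact permutation p = 0.1 (two-sided), the smallest that 3 against 3 arrays allow. It was 0.566 to 0.845 with any 1 array left out (exact p of 0.1 or 0.2), 0.549 with quantile normalization (exact p = 0.2) and 0.835 with the mean of both Cebpb probe sets.

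The sequences just before the annotated starts of this pair of genes are shown because the diets overlapped in the signals of Cebpa and not of Cebpb. Neither gene passed the threshold, and a part of these sequences in the signals was not tested. They are the 250 bases before the start in the RefSeq annotation of GRCm38.p6, 5′ to 3′ on the strand of the gene. The window of Cebpb lies at chr2:167688665-167688914, forward strand, and that of Cebpa at chr7:35119043-35119292, forward strand. Capitals mark the core TGACG of the cyclic AMP response element, the left arm TTGCG of the C/EBP site and the TATA box TATAAA, each on either strand (CGTCA is TGACG read on the other strand), and no 2 of the marked motifs overlap.
Cebpb: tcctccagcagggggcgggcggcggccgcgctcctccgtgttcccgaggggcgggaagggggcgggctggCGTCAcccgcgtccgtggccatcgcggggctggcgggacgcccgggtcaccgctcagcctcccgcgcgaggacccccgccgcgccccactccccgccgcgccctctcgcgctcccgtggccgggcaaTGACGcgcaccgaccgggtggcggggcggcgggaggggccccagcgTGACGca
Cebpa: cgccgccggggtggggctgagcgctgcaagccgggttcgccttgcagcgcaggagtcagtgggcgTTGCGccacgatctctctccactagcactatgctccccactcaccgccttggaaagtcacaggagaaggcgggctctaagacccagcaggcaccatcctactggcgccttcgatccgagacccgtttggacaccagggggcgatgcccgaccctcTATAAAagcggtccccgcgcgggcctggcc
The core TGACG stood 3 times in the window of Cebpb, at 180 to 176, 53 to 49 and 7 to 3 bases before the start, and not in that of Cebpa. It also stood in a window of Onecut1, which made 2 of the 14 windows of the 9 genes. At least 1 such core stood in 17.8% of all 32851 such windows in the RefSeq table. The arm TTGCG stood once in the window of Cebpa, 185 to 181 bases before the start, and TATAAA 30 to 25 bases before it. Of the 14 windows 3 held TTGCG (those of Foxa2, Foxa3 and Cebpa) and 5 held TATAAA, and of all windows 14.5% held TTGCG and 12.4% TATAAA. A match of letters is a description and not a bound site. Over the same 14 windows, ATCAAT, a core bound by ONECUT1, stood in 2, those of Hnf4a and Foxa2 (6.72% of all windows), and TGTTTAC, a core bound by FOXA proteins, in 1, that of Foxa1 (3.17%).

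Hnf4a, the nuclear receptor without which hepatocytes lose most of their gene programme, was read by 4 probe sets. The brightest, 1427001_s_at, had signals of 1124.1, 881.1 and 855.7 on the ketogenic arrays, against 1141.5, 1048 and 714.7 on the chow arrays. The lowest and the highest signal were both on chow. Its log2 change was -0.0042 ± 0.28 (SE), with a 95% interval of the fold from 0.642 to 1.55 and limma's adjusted p of 0.995. Changes between 0.642-fold and 1.55-fold are therefore compatible with these arrays. The other probe sets had log2 changes of 0.03 ± 0.42 (1421983_s_at), -0.53 ± 0.42 (1427000_at) and 0.46 ± 0.55 (1450447_at, all SE), with limma's adjusted p between 0.515 and 0.973. They differed in sign, and each had 1 low chow array. On 1450447_at the signals were 149.6, 156.3 and 105.7 in ketogenic livers and 174.7, 149.8 and 36.3 in chow livers. Chow array 3 lay under the mean of its diet on all 4 probe sets of Hnf4a, by log2 deviations of -0.41, -0.97, -0.78 and -1.44. Without it the log2 changes were -0.21, -0.45, -0.92 and -0.26 on 1427001_s_at, 1421983_s_at, 1427000_at and 1450447_at, all negative, and none passed the threshold. Leaving out a low chow array can only lower these changes. Ketogenic array 3 also lay under the mean of its diet on all 4, by -0.15, -0.39, -0.67 and -0.36. Without that array the changes were 0.07, 0.23, -0.20 and 0.64 in the same order. Without chow array 1 they were 0.13, 0.32, -0.38 and 0.87, and again none passed.

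Chow array 3 also stood apart in a measure of RNA quality. For pyruvate carboxylase the 3′ probe set divided by the 5′ one, a ratio that grows as RNA degrades or is copied incompletely, gave 11.1 on it and between 3.39 and 4.74 on the other 5 arrays. The same ratio of actin was 1.49 to 1.63 on ketogenic arrays and 2 to 2.2 on chow arrays. That of Gapdh overlapped between the diets, at 0.775 to 0.812 on ketogenic and 0.761 to 0.972 on chow arrays (exact permutation p = 0.9). Of the 18 probe sets 17 lay under the mean of their diet on chow array 3 and all 18 on ketogenic array 3, with median log2 deviations of -0.32 and -0.28. Several of the 18 read the same gene, and the same counts over all probe sets are not given here. These counts are therefore not read as a trait of the identity factors. Ketogenic array 3 and chow array 3 also had the lowest trimmed mean signal of their diets, at 45.6 and 39.6. Chow array 2 was close to the former, at 46.0, and 4 of the 18 probe sets lay under the mean of their diet on it. The remaining arrays were at 53.1 to 60.7. The part of RNA quality and array level in the spread of Hnf4a was not tested.

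**Figure D2:**
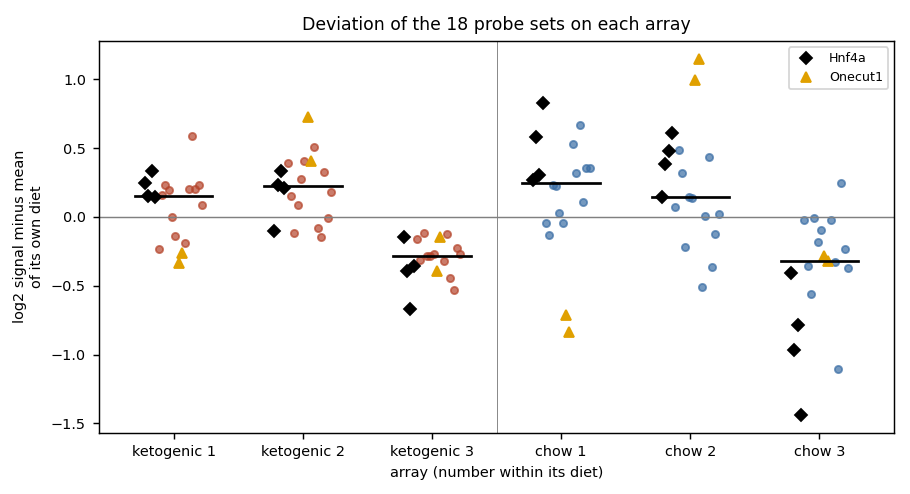
Log2 signal of each of the 18 probe sets minus the mean of its own diet (y axis) on each array (x axis, ketogenic arrays left), with Hnf4a as black diamonds, Onecut1 as yellow triangles and the median as a line. All 18 probe sets lie under 0 on ketogenic array 3 and 17 on chow array 3, where Hnf4a reaches -1.44, and Onecut1 ranges from -0.83 on chow array 1 to 1.15 on chow array 2.

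The FOXA genes encode pioneer factors that open liver enhancers, and FOXA2 also promotes genes of fat oxidation in the fasted liver. Foxa2 had signals of 126, 125.8 and 91 on the ketogenic arrays, against 157, 240.7 and 134.1 on the chow arrays. All ketogenic arrays lay under all chow arrays, and chow array 2 was the highest. The log2 change was -0.60 ± 0.30 (SE), a fold of 0.658 with a 95% interval from 0.408 to 1.06, and limma's adjusted p was 0.310. It was negative under all 17 alternatives, with adjusted p between 0.0864 and 0.616, and -0.36 without chow array 2. Foxa1 had signals of 97.1, 149.4 and 102.3 on ketogenic arrays and 129.7, 140.7 and 131.8 on chow arrays. Its ketogenic signals lay on both sides of the narrow chow range. The log2 change of Foxa1 was -0.23 ± 0.26 (SE; limma's adjusted p = 0.658). Foxa3, which stays active in adult liver, had signals of 227.4, 178.4 and 177.8 on ketogenic arrays and 258.4, 274.8 and 149.3 on chow arrays. Chow array 3 was again the lowest, so that the diets overlapped, and the log2 change was -0.19 ± 0.31 (SE; limma's adjusted p = 0.771). All 3 FOXA genes had negative changes as deposited, which became 0.13 for Foxa1 and 0.18 for Foxa3 when scaled to the hybridization controls.

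Onecut1 had the lowest log2 changes of the 9 genes, and its signals were scattered within both diets. Its probe set 1450252_at had signals of 43.3, 89.9 and 41.5 on the ketogenic arrays, against 59.2, 193.2 and 79.5 on the chow arrays. On 1421447_at the signals were 11.2, 17.8 and 12.1 in ketogenic livers and 15.9, 62.9 and 22.7 in chow livers, where a background of 10.8 is close. Chow array 2 was the highest on both probe sets, by more than 2-fold over the other chow arrays, and ketogenic array 2 was the highest of its diet. The log2 changes were -0.83 ± 0.48 and -1.08 ± 0.48 (SE), with limma's adjusted p of 0.378 and 0.259. Without chow array 2 they were -0.33 and -0.50. The 95% intervals of the fold ran from 0.263 to 1.20 and from 0.221 to 1.01. Of the markers of bile duct cells, which also express Onecut1, the filter kept 3 of 7 (Krt19, Sox9 and Epcam). Their summed signal was 74 to 87.5 on ketogenic and 44.3 to 69.4 on chow arrays, and 0 of the 3 passed. These signals were dim beside the background of 10.8: Krt19 averaged 14.1, and Epcam was at 5.2 on chow array 3. The part of bile duct cells was not tested.

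Prox1 is a homeodomain corepressor of hepatocytes and of lymphatic endothelium. Its 3 probe sets had log2 changes of 0.44 ± 0.35 (1457432_at), 0.43 ± 0.27 (1437894_at) and 0.18 ± 0.49 (1421336_at, all SE), with limma's adjusted p between 0.411 and 0.864. All were positive as deposited, and that of 1421336_at turned to -0.033 with a shared trimmed mean and to -0.11 after quantile normalization, and was -0.37 without chow array 3 and -0.11 without ketogenic array 1. On 1457432_at the change was 0.18 without ketogenic array 2 and also without chow array 2. On 1437894_at the signals were 68.5, 56.3 and 54.5 on the ketogenic arrays, against 55.2, 44.3 and 35.2 on the chow arrays, and the ranges just met. The summed signal of 6 endothelial markers was 495.1 to 694.7 on ketogenic and 335.4 to 515.5 on chow arrays, with 0 of 6 past the threshold, and its part in Prox1 was not tested.

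Nr5a2 had 3 probe sets that passed the filter, with log2 changes of -0.26 ± 0.32 (1456521_at), -0.36 ± 0.27 (1420410_at) and -0.16 ± 0.28 (1449706_s_at, all SE) and limma's adjusted p between 0.496 and 0.781. On 1420410_at the signals were 178.4, 150.7 and 129.7 in ketogenic livers and 249.4, 179.3 and 166.1 in chow livers. The highest was chow array 1 and the diets overlapped by a little. Its 95% interval of the fold ran from 0.506 to 1.19. The 19th probe set, 1449707_at of Nr5a2, was the one that the filter left out, with signals of 8.9, 13 and 8.6 on ketogenic and 4.1, 6.3 and 12 on chow arrays, of which 4 of 6 lay under the background.

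**Figure D3:**
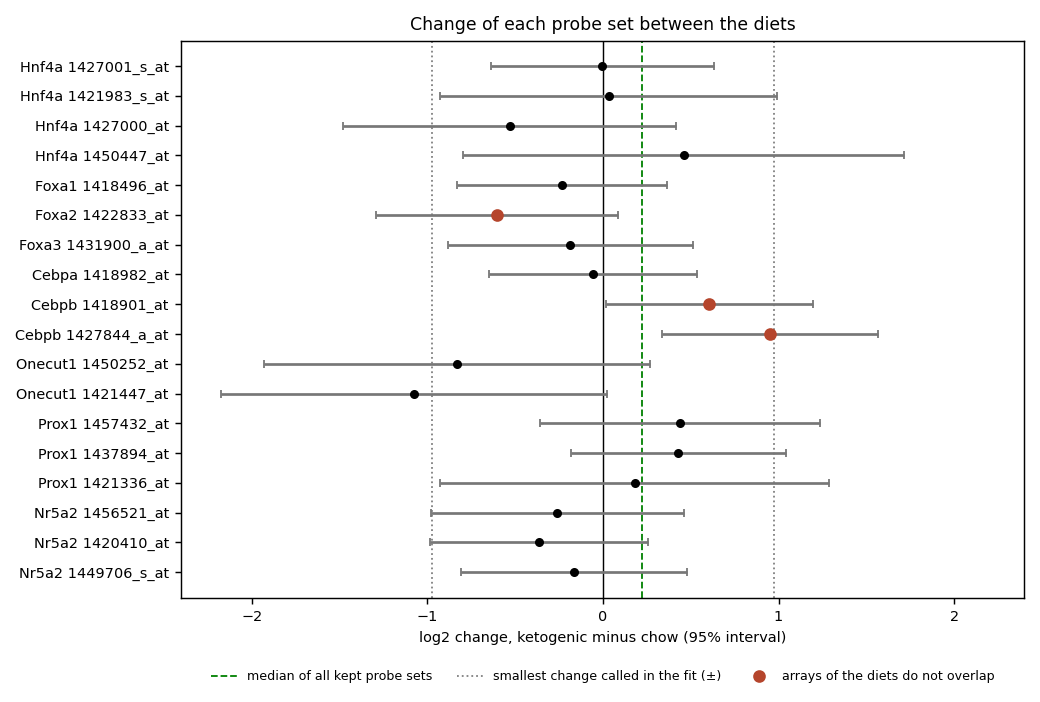
Log2 change, ketogenic minus chow (x axis), of the 18 probe sets with 95% intervals from limma, with the median of all probe sets (dashed, 0.22), the smallest change that passed (dotted, 0.97) and, in red, the 3 probe sets whose diets do not overlap. The intervals of both Cebpb probe sets lie above 0 and all others include 0.

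Within arrays, the log2 signal of each of the other 8 genes was also set against that of Hnf4a, on the brightest probe set of each, which together with the C/EBP balance made 9 comparisons. Against Hnf4a, the largest of the 8 shifts between diets were -0.83 for Onecut1, 0.61 for Cebpb and -0.60 for Foxa2. For Cebpb the difference from Hnf4a was -0.76, -0.13 and -0.65 on ketogenic arrays and -1.35, -1.11 and -0.89 on chow arrays, without overlap and with an exact permutation p = 0.1. For Foxa3 it was -2.31, -2.30 and -2.27 on ketogenic arrays and -2.14, -1.93 and -2.26 on chow arrays, all lower on the ketogenic diet, with the same exact p and a shift of -0.18. There ketogenic array 3 and chow array 3 were nearly equal. For the other 6 genes the exact p was between 0.2 and 0.8, and over the 9 comparisons the lowest Benjamini-Hochberg adjusted permutation p was 0.3.

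**Figure D4:**
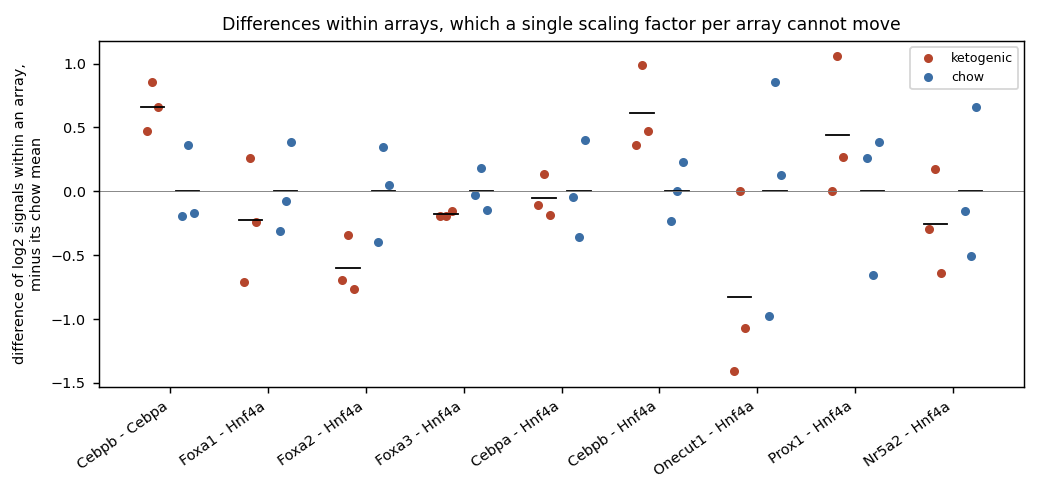
Differences of log2 signals within an array, minus their chow mean (y axis), for Cebpb against Cebpa and for each other gene against Hnf4a (x axis), with 1 point per array, ketogenic left of chow, and the mean as a line. The ketogenic and chow points are apart for Cebpb against Cebpa and Cebpb against Hnf4a, and barely apart for Foxa3 against Hnf4a.

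Of the other hepatocyte transcription factors, 23 were measured on a kept probe set, and 2 rose and 0 fell, against 4.74% and 0.615% of all 11866 genes. Their median log2 change was 0.10, against -0.19 for the 9 identity factors and 0.23 for all genes. Besides Cebpd, Atf5 rose. It is a basic leucine zipper factor of stress responses that is abundant in liver. Atf5 had signals of 1016.1, 1586.5 and 769.4 on ketogenic arrays and 288.5, 475.7 and 328.6 on chow arrays, with a log2 change of 1.59 ± 0.34 (SE; limma's adjusted p = 0.035). The call of Atf5 was lost without chow array 1 or 3 (0.083 and 0.0868) and without ketogenic array 1, 2 or 3 (0.0875, 0.1 and 0.0587), and under the shared trimmed mean (0.0508). The receptors Nr1h4, Rxra and Ppara, which work beside HNF4A on bile acid and fat genes, had log2 changes of -0.05, 0.17 and 0.25 and did not pass. Hhex, a homeodomain factor of early liver, was lower on every ketogenic array than on any chow array, at a log2 change of -0.62 ± 0.24 (SE; limma's adjusted p = 0.202).

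The list of cofactors and dimer partners of the 9 factors also held a pseudokinase gene, Trib3. Of this list 1 of 11 rose and 0 fell, against 4.74% and 0.615% of all 11866 genes. Trib3, a pseudokinase induced in the amino acid response, rose by 1.40 ± 0.32 (log2, SE; limma's adjusted p = 0.0433), with signals of 111.7, 131.4 and 92.6 on ketogenic and 62.3, 31.9 and 37.2 on chow arrays. Its call was lost without chow array 2 or 3 (0.127 and 0.107) and without ketogenic array 1, 2 or 3 (0.123, 0.13 and 0.0881), and another probe set had a log2 change of 0.96 (adjusted p = 0.178). Nr0b2, the orphan receptor SHP that represses HNF4A and NR5A2, had a log2 change of 0.67 ± 0.41 (SE; adjusted p = 0.405) and Ppargc1a, a coactivator of HNF4A, one of -0.13 ± 0.34 (SE; 0.859). Ddit3, whose protein CHOP pairs with C/EBP proteins, had a log2 change of 0.78 ± 0.39 (SE; adjusted p = 0.306).

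Genes known to be bound or driven by the 9 factors changed in both directions. Of 29 measured, 2 rose, 4 fell and 23 did not pass the threshold, against 4.74% higher and 0.615% lower of all 11866 genes. Their median log2 change was -0.11, against 0.23 for all genes. Igfbp1, a hepatic binding protein of insulin-like growth factors that FOXA proteins bind, had signals of 1582.2, 1963.4 and 1729 on ketogenic arrays and 314.3, 463.4 and 374.8 on chow arrays. It rose by 2.21 ± 0.26 (log2, SE; limma's adjusted p = 0.00437) and passed under all 17 alternatives. Apoa4, an apolipoprotein of fat-rich lipoproteins, averaged 4984 ± 524 in ketogenic and 1022 ± 784 in chow livers (SD, n = 3 each), and it rose by 2.54 ± 0.47 (log2, SE; adjusted p = 0.0212) on this probe set and by 3.58 (0.012) on another. Its call was lost without chow array 1 or 3 (0.0583 and 0.0521) and without ketogenic array 2 or 3 (0.0687 and 0.076).

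The falls were of Tat, the enzyme that opens tyrosine breakdown, Orm1, an acute phase glycoprotein, Cps1, which feeds ammonia into the urea cycle, and Agxt, which detoxifies glyoxylate. Orm1, a textbook target of C/EBP-beta, had signals of 608.7, 1070.8 and 700 on ketogenic arrays and 2528.6, 3054 and 2642.5 on chow arrays. Every ketogenic array lay far under every chow array. The log2 changes were -2.03 ± 0.34 for Tat, -1.83 ± 0.29 for Orm1, -1.82 ± 0.31 for Cps1 and -1.55 ± 0.34 for Agxt (SE), with limma's adjusted p of 0.0148, 0.0125, 0.0169 and 0.0376. Without ketogenic array 3 the calls of Tat (0.0587), Orm1 (0.0558), Cps1 (0.0608) and Agxt (0.0898) were lost, without ketogenic array 2 those of Cps1 (0.06) and Agxt (0.0919), and without chow array 1, 2 or 3 that of Agxt (0.0876, 0.0694 and 0.0805). Other targets did not pass. Alb, the gene of serum albumin, averaged 7948 ± 106 in ketogenic and 8023 ± 344 in chow livers (SD, n = 3 each), with a log2 change of -0.01. Cyp8b1, a bile acid enzyme that NR5A2 and HNF4A drive, had a log2 change of -0.74 ± 0.29 (SE; adjusted p = 0.2), Cyp7a1 one of -0.18 ± 0.36 (SE; 0.816), and G6pc, the glucose-6-phosphatase, one of -1.04 ± 0.26 (SE; 0.0579).

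**Figure D5:**
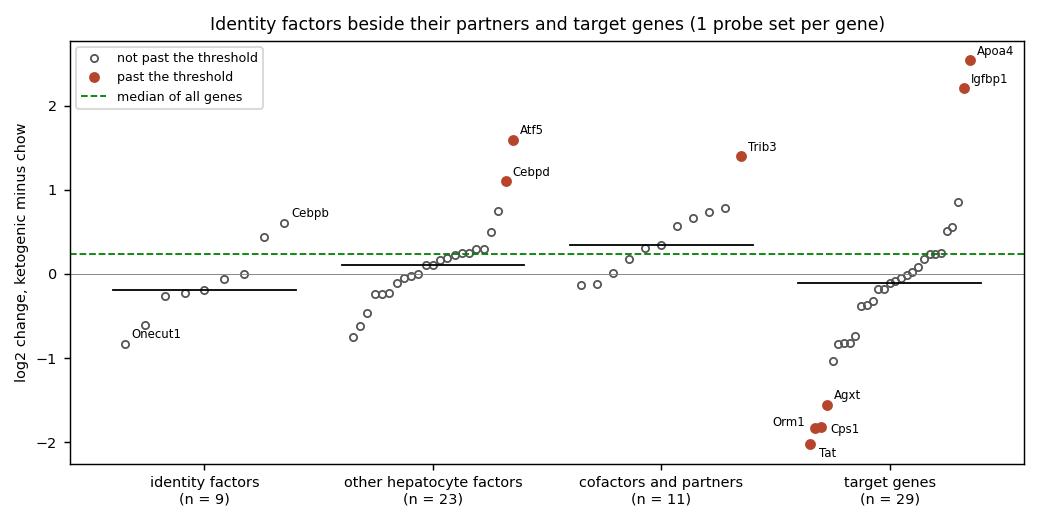
Log2 change, ketogenic minus chow (y axis), of the 9 identity factors, 23 other hepatocyte factors, 11 cofactors and partners and 29 target genes (x axis, 1 probe set per gene, ordered by change), with list medians as lines and the median of all genes dashed at 0.23. Filled points passed the threshold: 0 of the 9 identity factors, 2 other factors, Trib3 of the list of cofactors and partners, and 6 targets.

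Markers of the hepatocyte itself were present on all arrays. The summed signal of 9 such genes was 47841.9 to 54809.6 on ketogenic and 57402.8 to 61303.5 on chow arrays (exact permutation p = 0.1). None was at 0 on any array, and 0 of the 9 passed the threshold. The change was negative for 8 of the 9, and 6 were lower on every ketogenic array than on any chow array (5.06% of all probe sets). Ass1 was the dimmest, with signals of 17.6 to 26.2, where a background of 10.8 is close. Of 4 stellate cell markers 2 rose, with a summed signal of 1223.7 to 1967.7 on ketogenic and 301.9 to 472.5 on chow arrays. Col3a1, a fibrillar collagen, rose by 2.96 ± 0.40 and Col1a1 by 3.73 ± 0.66 (log2, SE), with limma's adjusted p of 0.00727 and 0.0193. The call of Col1a1 was lost without ketogenic array 2 or 3 (0.0537 and 0.0863), under the shared trimmed mean (0.0547) and after quantile normalization (0.0600), and that of Col3a1 with no filter (0.0767). In bulk liver, fewer hepatocytes and less transcript per hepatocyte cannot be told apart. Of the fetal liver genes, 1 of 4 measured passed the filter on dim signals, Gpc3, an oncofetal glypican, with a log2 change of 0.53 ± 0.62 (SE; limma's adjusted p = 0.666). Afp, Igf2 and Dlk1 lay below the filter.

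Among 11866 genes, those whose centred log2 signals lay closest to Hnf4a over the 6 arrays were Ing1, Npc1 and Xpa, at root mean square differences of 0.057, 0.064 and 0.064. Their log2 changes were -0.05, -0.01 and -0.03, none past the threshold. The likeness rests on 6 arrays, on which a difference in array level moves all genes together.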

How the data were processed

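Liver RNA of 3 ketogenic and 3 chow arrays was analysed. Each deposited value is a linear signal intensity of 1 probe set. Per the submitters' processing notes, the authors used GCOS and MAS5, whose versions and scaling target those notes leave out. Lower signals were set to 1.1, which is the 10th percentile, before log2 was taken. After 64 of the 45101 probe sets were removed as controls, the 22515 whose mean log2 signal reached the median (3.35) were tested. The platform annotation gave 1 symbol to 34958 probe sets, several to 932 and none to 9211. The test was two-sided (limma 3.58.1, lmFit and eBayes, under R 4.3.3), Benjamini-Hochberg adjustment ran over every tested probe set, and the threshold was 0.05. Each log2 change is ketogenic minus chow, with its moderated standard error (SE). Intervals of 95% use the moderated t distribution. Background (10.8) was taken as the 95th percentile of 27 bacterial controls, averaged as log2 over the arrays. Single values per array were compared with exact permutation tests. Array level overlapped between the diets, with a trimmed mean signal of 45.6 to 60.7 on ketogenic and 39.6 to 53.1 on chow arrays (exact permutation p = 0.3), and hybridization controls were at 478.3 to 511.2 on ketogenic and 633.2 to 650.3 on chow arrays. The number of arrays limits the precision.

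The members and lists were chosen with earlier results of these data known. All 9 members were named on every probe set. Of each other list up to 6 members past the threshold with the smallest adjusted p were to be named, or its brightest 2 where none passed, and of each marker list up to 2. A list gene is represented by its kept probe set with the highest mean. Cebpg, Nr1h4, Rxra, Ppara, Hhex, Nr0b2, Ppargc1a, Ddit3, Alb, Cyp8b1, Cyp7a1, G6pc, Ass1, Krt19, Sox9 and Epcam were named after their values were seen. Some other genes of these lists are not reported here. The alternatives were 4 scalings of the arrays, 2 filters, 2 floors, another variance prior, 2 choices of probe sets and each array left out in turn, 17 in all.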

Additional observations from a re-analysis of the deposited data

How the results depend on the processing

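As deposited, 1045 of 22515 probe sets passed the threshold, 87.8% of them higher on the ketogenic diet. The count was 5123 with scaling to the hybridization controls, 178 with no filter, 282 with the filter at the 25th percentile, 2269 with log2(signal + 16), 1872 with a trended robust prior, and 330 to 949 with 1 array left out (461, 441 and 330 when it was ketogenic array 1, 2 or 3, 633 when it was chow array 2 and 649 when it was chow array 3). The share of calls that were higher was 77.4% when arrays were set to a shared median, 65.9% for a shared trimmed mean, 64.6% after quantile normalization and 97.5% for the hybridization controls. These 4 scalings moved the median log2 change of all probe sets by -0.11, -0.21, -0.23 and 0.36. Of the identity factors' probe sets, 0 of 18 passed as deposited, 2 with the hybridization controls, 1 with log2(signal + 16), 1 with the trended robust prior, all of Cebpb, and 0 under the other 14 alternatives, leaving out any 1 array included. Of all probe sets 22.8% passed with the hybridization controls, 10.1% with log2(signal + 16) and 8.31% with the trended robust prior. The number of identity factors' probe sets with a positive change was 7 of 18 as deposited, where 68.1% of all probe sets were positive. It was 6, 5, 5 and 13 with the 4 scalings in the same order. The sign turned for 9 of the 18 probe sets under at least 1 alternative, and under none that was run for those of Cebpb, Foxa2, Onecut1, Hnf4a 1427000_at, Nr5a2 1420410_at and 2 of the 3 probe sets of Prox1. With the hybridization controls the log2 change became 0.36 for Hnf4a 1427001_s_at, 0.13 for Foxa1, 0.18 for Foxa3, 0.31 for Cebpa, 0.10 for Nr5a2 1456521_at and 0.20 for Nr5a2 1449706_s_at, and 0.31, 0.35 and 0.34 for Ing1, Npc1 and Xpa. For Hnf4a 1421983_s_at it became -0.079, -0.18 and -0.13 under the shared median, the shared trimmed mean and quantile normalization, and for Prox1 1421336_at -0.033 and -0.11 with the last 2 of these. With 1 array left out the changes ranged from -0.21 to 0.13 for Hnf4a 1427001_s_at, -0.45 to 0.32 for 1421983_s_at, -0.26 to 0.87 for 1450447_at, -0.16 to 0.085 for Cebpa, -0.37 to 0.52 for Prox1 1421336_at, -0.44 to 0.0066 for Nr5a2 1456521_at, -0.35 to 0.013 for Nr5a2 1449706_s_at, -0.16 to 1.12 for Gpc3, -0.22 to 0.057 for Ing1, -0.18 to 0.13 for Npc1 and -0.24 to 0.095 for Xpa. The cause of these turns was not tested. The calls of Atf5, Cebpd, Trib3, Apoa4, Tat, Orm1, Cps1, Agxt and Col1a1 were also lost with both weaker filters, that of Cebpd also under the shared trimmed mean (0.0567) and quantile normalization (0.0802), and over all alternatives the adjusted p of these 9 genes, in the order named, reached 0.164, 0.165, 0.177, 0.138, 0.104, 0.0842, 0.106, 0.170 and 0.139 at most and 0.0068 or less at least. The balance of Cebpb against Cebpa was positive under all 13 alternatives run, from 0.549 to 0.845. No paired analysis was possible because the labels give no replicate numbers that the diets share.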
